A study of Mus musculus with 6 samples.

Results

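Glutathione transferases, the enzymes that make, recycle or use glutathione, and targets of the transcription factor NRF2 were measured in mouse livers of genotype Mig-6 d/d and set against those of genotype Mig-6 f/f. The set was a list of 36 gene symbols, and 34 of them had at least 1 probe set annotated to a single symbol, 60 probe sets in all. Prdx1 and Prdx6 had none and were not analysed here, and 6 further probe sets that name a member beside other genes were not used. All 34 genes passed the filter on dim probe sets, which left 13718 genes in the series, and 59 of their 60 probe sets lay above it. Livers of male mice aged 8 weeks on a mixed background were collected after a fast of 24 h, from animals kept on standard chow under a 12-h light cycle, and hybridized to Affymetrix arrays, 3 per genotype. Mig-6, the product of Errfi1, restrains signalling by the epidermal growth factor receptor once that receptor is active. No further alleles are named, and what f and d stand for, the driver and cells of any deletion, and whether each array stands for 1 animal are not given in the sources used here. The p-values therefore rest on the spread between arrays, which may be partly technical.

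Glutathione is a small thiol made in the liver by successive enzymes, of which glutamate-cysteine ligase (Gclc with its modifier subunit Gclm) is rate-limiting and glutathione synthetase (Gss) completes the molecule. Transferases join it to reactive or foreign compounds, peroxidases spend it on peroxides, and glutathione reductase (Gsr) regenerates it with NADPH. NRF2, the product of Nfe2l2, is held in the cytoplasm and marked for degradation by Keap1, so its activity is set largely by protein stability. When released, it binds antioxidant response elements near many of these genes, and Nqo1 is its most used reporter in mouse liver.

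The core letters of that element, TGACNNNGC, were looked for on both strands of the windows in the RefSeq promoter table (GRCm38.p6), which run from 250 bases before to 50 bases after each start. Of the 36 members 30 were in the table. Gsta4, Gstt2, Gclc, Gsr, Prdx6 and Hmox1 were not, so their promoters were not searched. Of the 30, 10 held at least 1 match (33.3%), where 3781 of all 27025 genes in the table did (14.0%). A gene counted if any of its windows matched. By window the shares were 10 of 43 for members (23.3%) and 4071 of 32851 for all genes (12.4%). The sequences that hold a match before the start are shown to place the listed targets beside their measurements, 5′ to 3′ along the gene, with the 9 matching bases in capitals. A match on the opposite strand reads GCNNNGTCA. The motif can overlap an AP-1 site, as its first 4 bases are shared with TGACTCA. In Srxn1 the match began at base 29 after the start, and in Gstm7 and Txnrd1 it lay after another start of the gene, so these are not shown.
Gsta3 (chr1:21240449-21240487, plus strand): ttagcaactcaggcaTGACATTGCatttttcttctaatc
Nfe2l2 (chr2:75704880-75704913, minus strand): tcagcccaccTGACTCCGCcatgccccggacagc
Gstm5 (chr3:107895797-107895835, plus strand): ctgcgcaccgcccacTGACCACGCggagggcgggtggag
Gclm (chr3:122245408-122245446, plus strand): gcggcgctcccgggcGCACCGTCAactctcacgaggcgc
Prdx1 (chr4:116685451-116685489, plus strand): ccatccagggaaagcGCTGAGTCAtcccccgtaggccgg
Mgst1 (chr6:138140456-138140494, plus strand): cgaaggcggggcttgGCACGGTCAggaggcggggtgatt
Sod1 (chr16:90220691-90220729, plus strand): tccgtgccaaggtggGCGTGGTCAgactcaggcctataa
The 9 members with a match that were measured had log2 differences from -0.45 (Sod1) to 0.53 (Nfe2l2), 4 of them negative and 5 positive. The 20 measured members in the table without one had 14 negative and 6 positive differences. Of all genes tested 46.5% had a positive difference. Whether members with and without a match differ was not tested. A match is a description of these letters, and its absence says nothing about binding elsewhere.

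Across the arrays Errfi1 read 5371, 5424 and 5686 in deposited intensity in f/f and 68.0, 61.8 and 59.6 in d/d (limma, Benjamini-Hochberg adjusted p = 4.91e-08), so the d/d arrays were low and the f/f arrays high in the targeted gene without exception. All differences are d/d minus f/f of quantile normalized log2(intensity + 16), and they understate changes of dim genes. They come with the standard error of limma, and n = 3 per group unless an array is left out. In the whole series 13 of 13718 genes (0.0948%) passed an adjusted p of 0.05, 6 higher in d/d (0.0437%) and 7 lower (0.051%). One array, f/f replicate 3, stood apart, with 18S ribosomal control probe sets averaging 3807 against 218 to 455 on the other 5. Results are therefore also given without it, which leaves only replicates 1 and 2 in the f/f group. Among the 34 members this array read lowest of the f/f arrays for 20, and d/d replicate 3 read highest of the d/d arrays for 27.

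The members with an unadjusted p under 0.05 were Gstm1, Gstm2 and Gstm3 of the mu class and Gsta2 of the alpha class, which read lower in d/d, and Gclc, Gss and Nfe2l2, which read higher. No member passed the threshold over all genes, with a lowest adjusted p of 0.236, for Gstm2 (limma). The members at that unadjusted p numbered 7 of 34 (20.6%), 4 lower and 3 higher, where 7.84% of all genes reached it (3.07% lower, 4.77% higher). The genotypes did not overlap for 7 members (20.6%), 4 lower and 3 higher, against 14.7% of all genes (6.79% lower, 7.9% higher). Of the 34 differences 12 were positive (35.3%, against 46.5% of all genes) and 22 negative, with a median of -0.095 beside -0.015 for all genes. The members and the further lists below were chosen with earlier results of these data known. Their shares beside those of all genes are therefore descriptions and not tests. Without f/f replicate 3, Gsta2 and Gstm2 passed as lower, where 0.664% of all genes did (0.358% lower, 0.307% higher), and 12 members had an unadjusted p under 0.05, 10 lower and 2 higher, where 11.2% of all genes had (5.34% lower, 5.88% higher).

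**Figure D1:**
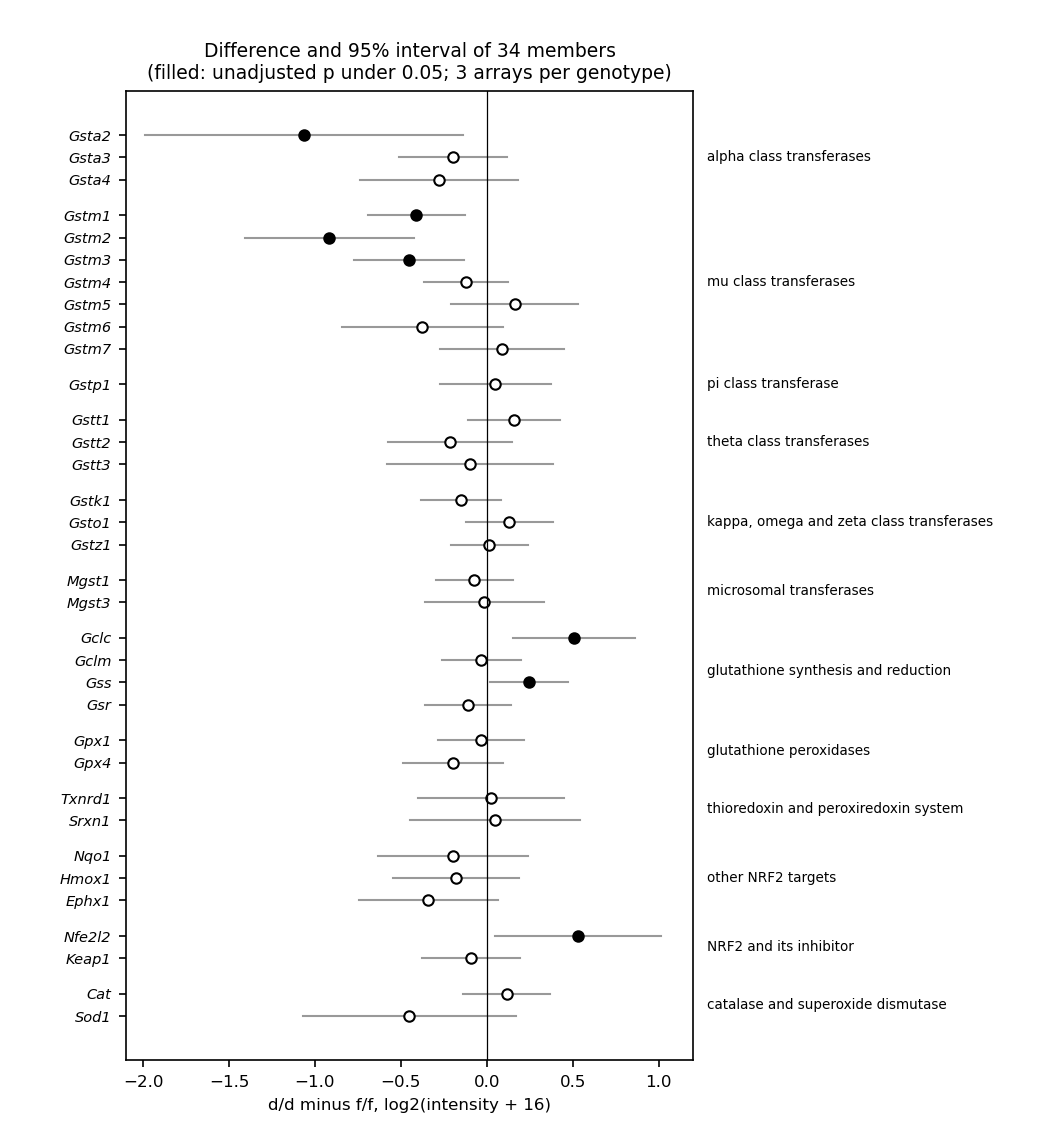
Difference between genotypes (d/d minus f/f, log2 of intensity + 16) for 34 members with 95% intervals, ordered by class, filled where the unadjusted p was under 0.05. The 4 filled points left of 0 are Gsta2, Gstm1, Gstm2 and Gstm3, and the 3 to the right are Gclc, Gss and Nfe2l2.

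**Figure D2:**
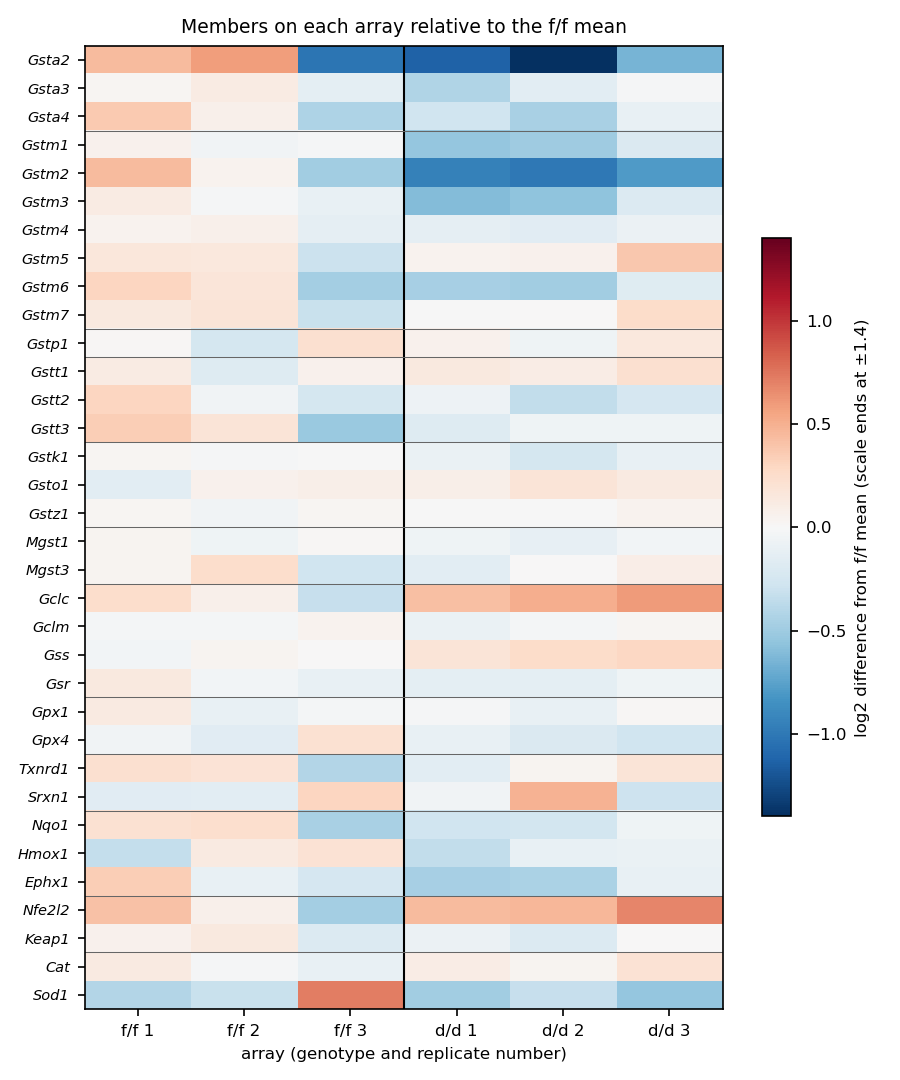
Members in rows and arrays in columns, coloured by the log2 difference from the mean of the 3 f/f arrays, with lines between classes. Gstm1, Gstm2 and Gstm3 are below the f/f mean on all 3 d/d arrays, Gclc and Nfe2l2 are above it, and f/f replicate 3 is low for Gsta2 and high for Sod1.

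Mu class transferases conjugate glutathione to epoxides and other electrophiles in the cytosol. Gstm2 read 937, 706 and 482 on the f/f arrays and 339, 332 and 391 on the d/d arrays. All 3 d/d values lay below the lowest f/f value, that of replicate 3, and the d/d arrays were far closer together. The means were 708 ± 227 and 354 ± 32.1 (SD, n = 3), 1.89 times lower in d/d on the scale with 16 added, with a log2 difference of -0.92 ± 0.21 (limma, Benjamini-Hochberg adjusted p = 0.236). Without f/f replicate 3 the difference was -1.16 ± 0.14 and passed (limma, Benjamini-Hochberg adjusted p = 0.0136). Gstm2 also passed with array weights, where the adjusted p was 0.0068 (limma) and 1.57% of all genes passed. Those weights put f/f replicate 3 lowest, at 0.178, so these fits are not independent of each other. Over all 16 alternatives the adjusted p ran from 0.0068 to 0.794, the highest without d/d replicate 2.

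Gstm1, an abundant liver transferase, read 6963, 6902 and 6912 in f/f and 4545, 4798 and 5828 in d/d. The f/f arrays were nearly equal and all above the d/d arrays, of which replicate 3 was closest to them. The log2 difference was -0.41 ± 0.12, 1.33 times lower (limma, Benjamini-Hochberg adjusted p = 0.388). Its other probe sets gave -0.38 ± 0.14, -0.39 ± 0.14 and -0.24 ± 0.12, and only on the last, the dimmest of them, did the genotypes overlap. Gstm3 read 1382, 1292 and 1191 in f/f and 821, 868 and 1098 in d/d. Again d/d replicate 3 came nearest to f/f without overlapping it. Its log2 difference was -0.45 ± 0.14, 1.37 times lower (limma, Benjamini-Hochberg adjusted p = 0.392), and its other probe set had -0.42 ± 0.28 with overlapping groups. Without f/f replicate 3 the differences were -0.42 for Gstm1 and -0.51 for Gstm3.

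The other mu members did not share this separation. Gstm6 had -0.37 ± 0.21 and Gstm4 -0.12 ± 0.11, both with overlapping groups. Gstm5 and Gstm7 were slightly positive, at 0.16 ± 0.16 and 0.088 ± 0.16. For Gstm6 the low f/f value was again replicate 3, at 216 where the other 2 read 368 and 336, and without this array the difference was -0.62 ± 0.12 (limma, Benjamini-Hochberg adjusted p = 0.0824). It was -0.22 when f/f replicate 1 was left out instead. Gstm7 turned to -0.072 and Gstm5 had 0.012 with f/f replicate 3 left out. The class as a whole had 5 of 7 members lower and a median of -0.37.

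In the reference gene table the 7 mu genes lie side by side on chromosome 3, in the order Gstm5, Gstm7, Gstm6, Gstm3, Gstm2, Gstm1, Gstm4, with 0 other protein-coding genes between the first and the last. The 3 genes whose genotypes did not overlap are consecutive, and Gstm2, with the largest difference of the 7, is the middle one. The differences at both ends of the row, in Gstm5 and Gstm4, were within 0.20 of 0 on the log2 scale. Mu genes are close in sequence, and the suffixes of several probe sets (_x_at for Gstm1, _s_at for Gstm3) mark probes that can match more than 1 transcript. Signal of one mu gene on the probe set of another cannot be told apart from the signal of its own gene. The 120 bases before the start of the 3 consecutive genes are shown as their proximal promoters (RefSeq, GRCm38.p6; for Gstm1, which has 2 starts, before the upstream one), in lower case throughout because none of their windows held TGACNNNGC.
Gstm1 (chr3:108017974-108018093, minus strand): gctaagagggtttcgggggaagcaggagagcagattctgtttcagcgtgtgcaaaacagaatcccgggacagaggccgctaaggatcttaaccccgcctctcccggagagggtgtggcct
Gstm2 (chr3:107986421-107986540, minus strand): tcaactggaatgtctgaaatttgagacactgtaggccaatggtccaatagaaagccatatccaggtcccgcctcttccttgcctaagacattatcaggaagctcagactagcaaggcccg
Gstm3 (chr3:107969175-107969294, minus strand): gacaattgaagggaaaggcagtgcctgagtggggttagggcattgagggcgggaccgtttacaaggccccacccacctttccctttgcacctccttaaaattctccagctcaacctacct

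**Figure D3:**
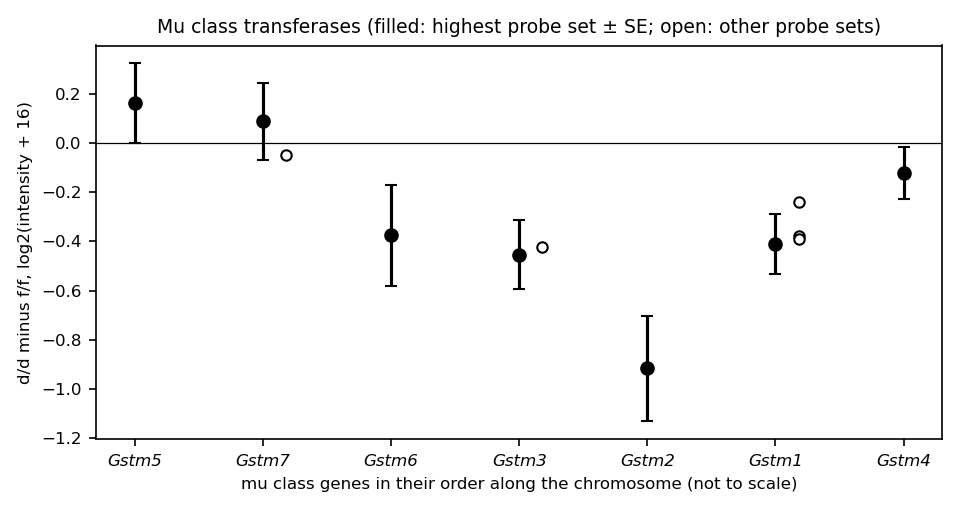
Differences between genotypes (d/d minus f/f, log2 of intensity + 16) for the 7 mu class genes in their order along the chromosome, which is not to scale. Filled points with bars are the probe set used and its standard error, open points the other probe sets, and the lowest value is that of Gstm2 at -0.92.

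Alpha class transferases, which also reduce lipid peroxides, were negative in all 3 members, but none had separate groups. Gsta2 read 612, 686 and 221 in f/f and 196, 161 and 284 in d/d. f/f replicates 1 and 2 were far above every d/d array, while f/f replicate 3 lay within the d/d range. The log2 difference was -1.07 ± 0.40, 2.09 times lower (limma, Benjamini-Hochberg adjusted p = 0.553), with a 95% interval of -1.99 to -0.14. Without f/f replicate 3 it was -1.59 ± 0.20 and passed (limma, Benjamini-Hochberg adjusted p = 0.0192), and over the 16 alternatives the adjusted p ran from 0.00978 to 0.971. The smallest difference of Gsta2 with 1 array left out was -0.77, without f/f replicate 2. Gsta3 read 6809, 7659 and 6297 in f/f and 5002, 6038 and 6693 in d/d, a difference of -0.20 ± 0.14 (limma, Benjamini-Hochberg adjusted p = 0.801), with overlap. Gsta4, which acts on 4-hydroxynonenal, a product of lipid peroxidation, had -0.28 ± 0.20, with -0.50 when f/f replicate 3 was left out and -0.099 when replicate 1 was.

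None of the pi, theta, kappa, omega, zeta and microsomal transferases had an unadjusted p under 0.05 (limma). Gstp1, the pi class enzyme, read 17556, 16389.8 and 21057 in f/f and 18576, 16998 and 20153 in d/d. The genotypes overlapped throughout, with a difference of 0.050 ± 0.14 and a 95% interval of -0.27 to 0.37 (limma, Benjamini-Hochberg adjusted p = 0.946), and the sign turned without f/f replicate 2 (-0.073). In the theta class Gstt1 had 0.16 ± 0.12, Gstt2 -0.22 ± 0.16 and Gstt3 -0.098 ± 0.21, and without f/f replicate 3 Gstt2 had -0.34 and Gstt3 -0.36. The difference of Gstt2 was -0.066 and that of Gstt3 turned to 0.074 when f/f replicate 1 was left out. Gstt2 read 1060.4, 838 and 740.0 in f/f and 814, 683 and 735 in d/d, with overlapping groups (limma, Benjamini-Hochberg adjusted p = 0.804).

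Gstk1, the transferase of mitochondria and peroxisomes, read 1189, 1179 and 1179 in f/f and 1077, 992 and 1069.9 in d/d. Its genotypes did not overlap, yet the difference was small, -0.15 ± 0.10 (limma, Benjamini-Hochberg adjusted p = 0.798). The omega enzyme Gsto1 had 0.13 ± 0.11 and the zeta enzyme Gstz1, which acts in tyrosine breakdown, 0.015 ± 0.097. The membrane-bound Mgst1 read 18177, 18247 and 18957 in f/f and 17130.2, 16376 and 17429 in d/d. These deposited values did not overlap, but the normalized ones did, with a difference of -0.072 ± 0.098 (limma, Benjamini-Hochberg adjusted p = 0.892). Mgst3 had -0.014 ± 0.15. Over all 19 transferases 13 differences were negative and 6 positive (31.6%, against 46.5% of all genes). At an unadjusted p under 0.05 there were 4 (21.1%, against 7.84% of all genes), all lower, as were 3.07% of all genes.

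**Figure D4:**
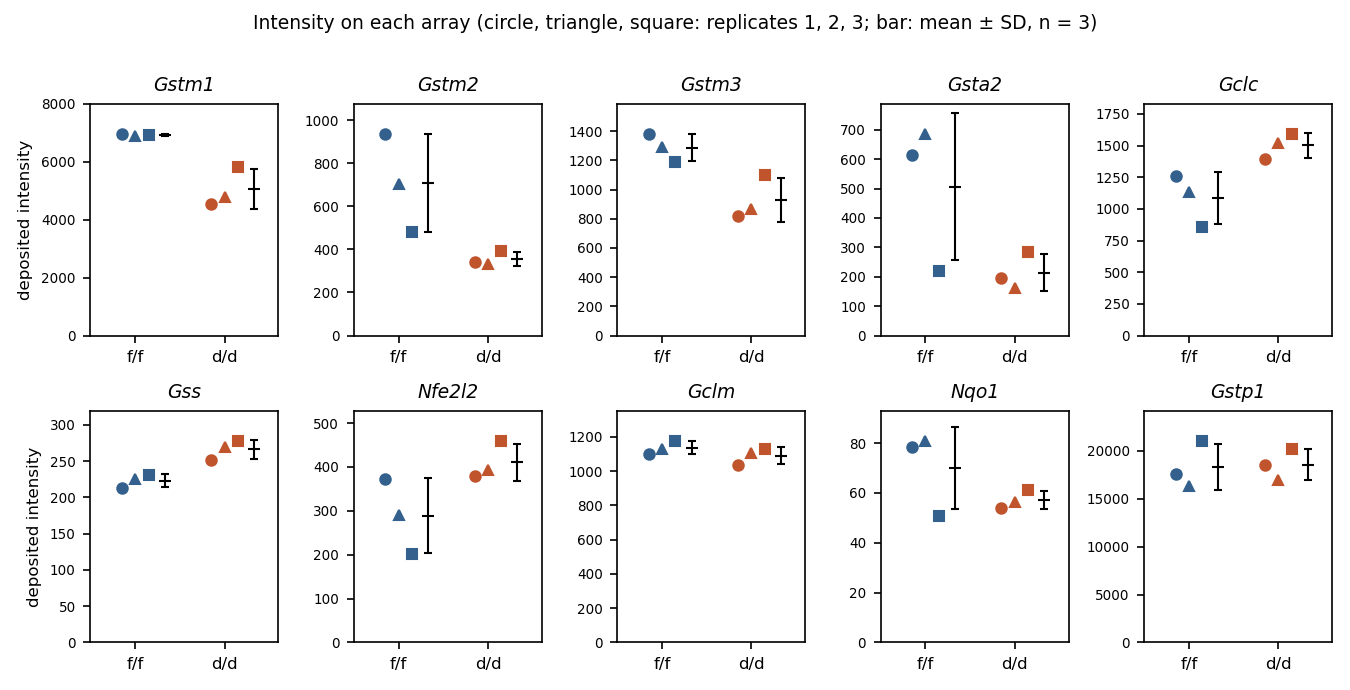
Deposited intensity of 10 members on each array, f/f in blue and d/d in orange, with symbols for replicate numbers and the mean and SD of 3 arrays beside them. Gstm1, Gstm2, Gstm3, Gclc, Gss and Nfe2l2 have separate genotypes. The lowest f/f array of Gstm2, Gstm3, Gsta2, Gclc, Nfe2l2 and Nqo1 is f/f replicate 3 (square).

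Among the genes of glutathione synthesis, Gclc, the catalytic subunit of the rate-limiting ligase, read 1261, 1132 and 859 in f/f and 1396, 1517 and 1592 in d/d. Every d/d array was above every f/f array, and f/f replicate 3 was the lowest of all. The difference was 0.51 ± 0.16, 1.42 times higher (limma, Benjamini-Hochberg adjusted p = 0.391), and the other probe set of Gclc gave 0.48 ± 0.15, also with separate groups. Without f/f replicate 3 the difference was 0.35 ± 0.11. Gclm, the modifier subunit of the same ligase, read 1101, 1127 and 1176 in f/f and 1036, 1107 and 1127 in d/d. The groups overlapped, with a difference of -0.032 ± 0.099 and a 95% interval of -0.26 to 0.20 (limma, Benjamini-Hochberg adjusted p = 0.949). That interval leaves out a difference of the size measured for Gclc, while the difference between the subunits was not tested.

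Gss, which adds glycine to complete glutathione, read 213, 225 and 231 in f/f and 252, 269 and 278 in d/d. The groups were separate, with a tight spread in each and a difference of 0.24 ± 0.099, 1.18 times higher (limma, Benjamini-Hochberg adjusted p = 0.595). Its dimmer probe set had 0.083 ± 0.14 with overlap, and the mean of both had 0.16. Gsr, the reductase, had -0.11 ± 0.11 with overlapping groups.

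Nfe2l2, the gene of NRF2, read 373, 291 and 202 in f/f and 379, 392 and 459 in d/d. The groups were separate by a small margin, since f/f replicate 1 lay just under d/d replicate 1. The difference was 0.53 ± 0.21, 1.44 times higher (limma, Benjamini-Hochberg adjusted p = 0.587). It was 0.29 ± 0.13 without f/f replicate 3, the lowest array, and 0.73 when f/f replicate 1 was left out. A dim second probe set had 0.0016 ± 0.14. The average of both probe sets was 0.27. Keap1, the inhibitor, read 157, 167 and 144 in f/f and 143, 135 and 152 in d/d, with overlap and a difference of -0.091 ± 0.12 (limma, Benjamini-Hochberg adjusted p = 0.892).

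Nqo1, Ephx1 and Hmox1, the other listed NRF2 targets, all had negative differences with overlapping groups. Nqo1, the quinone reductase, read 78.2, 80.9 and 50.8 in f/f and 54.0, 56.3 and 61.3 in d/d. These are dim values, near the filter at an intensity of 48.3, and f/f replicate 3 was the lowest of the 6. The difference was -0.20 ± 0.19 (limma, Benjamini-Hochberg adjusted p = 0.846), with -0.42 ± 0.11 without that array and -0.076 without f/f replicate 2. Ephx1, the microsomal epoxide hydrolase, read 3274, 2436 and 2175 in f/f and 1789.7, 1891 and 2276 in d/d, a difference of -0.34 ± 0.18 (limma, Benjamini-Hochberg adjusted p = 0.712). Leaving out f/f replicate 3 gave -0.46 ± 0.16, and leaving out f/f replicate 1 gave -0.17. In Ephx1 d/d replicate 3 was the array that crossed into the f/f range. Hmox1, heme oxygenase 1, read 98.8, 143 and 164 in f/f and 101, 125 and 119 in d/d, a difference of -0.18 ± 0.16 (limma, Benjamini-Hochberg adjusted p = 0.841). Leaving out f/f replicate 1 gave -0.34, and leaving out f/f replicate 3 gave -0.083. Hmox1 is also made by Kupffer cells, whose markers read lower for 9 of 10 genes, with a summed intensity of 2905 to 4159 in f/f and 2526 to 3228 in d/d, and their part in the Hmox1 value was not tested.

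The genotypes overlapped for each peroxidase, thioredoxin and dismutase gene on the probe set used. Gpx1, the main selenium peroxidase of liver cytosol, read 17011, 15836 and 16333 in f/f and 15145, 14349 and 15884 in d/d, a difference of -0.034 ± 0.11 with a 95% interval of -0.28 to 0.22 (limma, Benjamini-Hochberg adjusted p = 0.953). Its sign turned without f/f replicate 1 (0.032). Gpx4, which reduces lipid peroxides in membranes, read 2774, 2617 and 3345 in f/f and 2661, 2507 and 2285 in d/d, a difference of -0.20 ± 0.13 (limma, Benjamini-Hochberg adjusted p = 0.788). The highest Gpx4 value was that of f/f replicate 3, without which the difference was -0.091. Cat, catalase, had 0.12 ± 0.11 and its other probe set 0.098 ± 0.10.

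Txnrd1, thioredoxin reductase, had 0.024 ± 0.19 on its brightest probe set, but -0.30 ± 0.12 and -0.29 ± 0.12 on the others, both with d/d entirely below f/f. Averaged over its probe sets Txnrd1 had -0.19, with an unadjusted p of 0.0325 (limma). These dimmer probe sets read highest on f/f replicate 3, while the brightest one read lowest there, so the probe sets of this gene disagree on that array. Srxn1, sulfiredoxin, which repairs overoxidized peroxiredoxins, read 269, 273 and 381 in f/f and 291, 435 and 246 in d/d. Its spread was wide in both genotypes, at 0.047 ± 0.22 (limma, Benjamini-Hochberg adjusted p = 0.966), and its other probe sets had -0.19 ± 0.15, -0.072 ± 0.11 and -0.057 ± 0.19.

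Sod1, the cytosolic superoxide dismutase, read 4045, 4402 and 9286 in f/f and 3808, 4337 and 3669.8 in d/d. The value of f/f replicate 3 was far above the other 5, and a second probe set read 2275, 2674 and 14267 in f/f and 2078, 3565 and 2046 in d/d, with the same array highest. The difference of -0.45 ± 0.27 (limma, Benjamini-Hochberg adjusted p = 0.772) became -0.093 ± 0.11 without it, and -0.66 when f/f replicate 1 was left out.

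**Figure D5:**
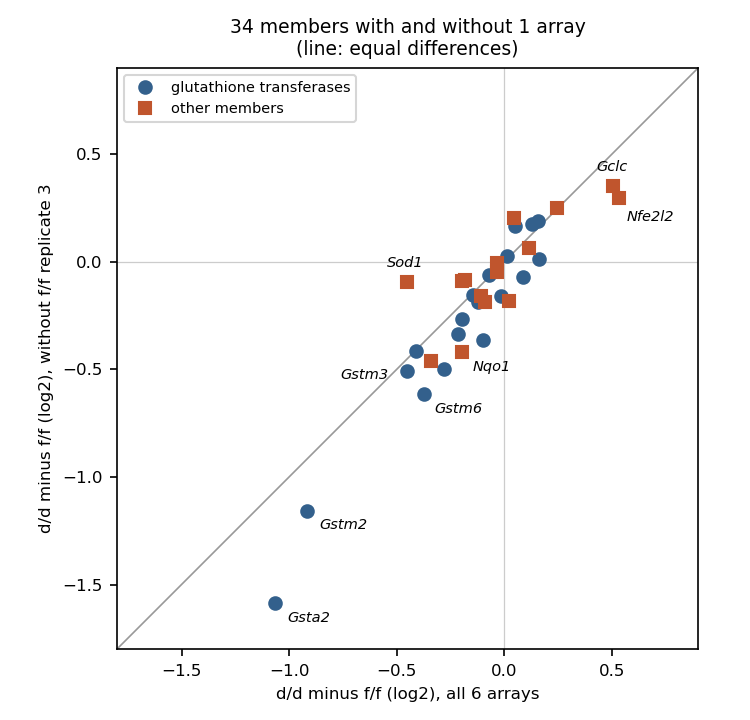
Difference between genotypes for each of the 34 members with all 6 arrays (horizontal) and without f/f replicate 3 (vertical), both as log2, transferases as circles and other members as squares. Gsta2 and Gstm2 lie below the line of equal differences, at -1.59 and -1.16 without the array, and Sod1 moves from -0.45 to -0.093.

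Further genes of the pathway were taken from lists of other transferases, cysteine supply and glutathione breakdown, other redox proteins, NADPH supply, further NRF2 targets and NRF2 partners. Of 91 listed genes 82 had a probe set and 76 were tested, with 0 past the threshold in limma and 12 at an unadjusted p under 0.05, 8 lower and 4 higher (15.8%, against 7.84% of all genes). Their median difference was -0.046. Of cysteine supply and breakdown, 3 of 19 reached that p, all lower, among them Mat1a, which makes S-adenosylmethionine in the liver, with -0.30 ± 0.11, and Oplah, which opens 5-oxoproline from glutathione breakdown, with -0.30 ± 0.12. Mat1a read 14178, 13949 and 14045 in f/f and 12010.5, 11163 and 10619.8 in d/d. Its genotypes were separate.

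Of 17 further NRF2 targets tested, 3 were lower and 1 higher at an unadjusted p under 0.05, against 3.07% and 4.77% of all genes, and 5 differences were positive (29.4%, against 46.5% of all genes). Sqstm1, the autophagy adaptor p62 that binds Keap1, read 2191, 2143 and 2051 in f/f and 1683, 1693 and 1552 in d/d. These groups were separate, with -0.34 ± 0.10 (limma, Benjamini-Hochberg adjusted p = 0.388). Blvrb, a biliverdin reductase, had -0.39 ± 0.13, also with separate groups. The higher gene of this list at that p, Osgin1, had 0.32 ± 0.11, with separate groups as well. Of 11 other thioredoxins, glutaredoxins and peroxiredoxins, 2 were higher and 1 lower at that p. Glrx, a glutathione-dependent thiol reductase, had -0.41 ± 0.12 with separate groups, and Txnrd3, a reductase known from testis, had 0.47 ± 0.15. The deposited values of Txnrd3 overlapped, with 135 on f/f replicate 2 and 134 on d/d replicate 3, and only the normalized ones were separate. Me1, a source of cytosolic NADPH, had -0.50 ± 0.19 with overlapping groups, and Gsk3b, a kinase that acts on NRF2, 0.36 ± 0.13 with separate ones. Among 5 other transferases and 5 other peroxidases and dismutases tested, 0 reached that p in limma.

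Several transferases are known to be richest in hepatocytes around the central vein, so markers of those cells are given beside them. All 9 tested pericentral genes had a negative difference, where 46.5% of all genes had a positive one, and their median was -0.20 beside -0.015. Of these, 2 had an unadjusted p under 0.05 (22.2%, against 3.07% of all genes in that direction). Oat had -0.80 ± 0.14, Cyp1a2 -0.27 ± 0.12 and Glul, the classical pericentral marker, -0.12 ± 0.16. The difference nearest to 0 was that of Rhbg, at -0.0040 ± 0.11. The summed intensity of all 10 listed genes was 41618 to 43631 in f/f and 35132 to 35275 in d/d, so the genotypes were separate in this sum. Cyp2e1 is its largest part, with means of 23565 in f/f and 20736 in d/d. Oat, a smaller part of the sum, had means of 6222 in f/f and 3435 in d/d. The part of the pericentral difference in the mu and alpha values was not tested. In whole liver fewer cells of a type and less RNA per cell cannot be told apart.

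Hepatocyte markers, which set the tissue, were all above the dim filter (8 of 8), with sums of 138050.0 to 142263 in f/f and 135693 to 138567 in d/d. Of these 8 markers 2 had a positive difference, Alb had equal normalized values on all arrays, and the median was -0.039. Cyp2e1 counts among these markers and among the pericentral genes. Markers of stellate cells and fibroblasts summed to 2925 to 3247 in f/f and 2375 to 2864 in d/d, without overlap. Dcn, the brightest of these 8 markers, carried that separation, and the sum of the other 7, taken after seeing the data, was 945 to 1083 in f/f and 909 to 1076 in d/d, with overlap. Of the 8 markers 3 had a positive and 5 a negative difference, with a median of -0.061. Markers of sinusoidal endothelium summed to 1283 to 1449 in f/f and 1326 to 1544 in d/d. Erythroid markers, which bear on Gpx1 and Cat because red cells hold both, summed to 859 to 998 in f/f and 838 to 1014 in d/d. Only 3 of the 6 listed had a usable probe set. Alas2, with means of 724 in f/f and 713 in d/d, was most of that sum. Of 5 cholangiocyte markers 3 were under the dim filter, among them Krt19 and Krt7. The part of these cells in the members' values was not tested.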

How the data were processed

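Liver RNA of 6 samples was biotin-labelled for Affymetrix arrays, according to the labels. The authors deposited linear intensities per probe set for 45101 probe sets, all above 0. How the authors summarized probes and scaled arrays, and their genome build, are not given in any source used here. Gene names came from the platform annotation, and the 34945 probe sets with 1 symbol were kept. Because the medians of log2(intensity + 16) differed between arrays by up to 0.185, more than the tolerance of 0.1, quantile normalization was applied. The dimmest 40% of probe sets (mean intensity under 48.3) were removed, and each gene was represented by its brightest probe set. The test was limma 3.58.1 (lmFit, eBayes, R 4.3.3) on genotype alone, with Benjamini-Hochberg adjustment over 13718 genes. It was also run on simulated data with independent noise and no outlying array. That setting differs from these data, where f/f replicate 3 stood apart. Single probe sets other than the one used were fitted over all 34945 with no dim filter. Python 3.11.15, pandas 2.3.3 and matplotlib 3.10.9 made tables and figures. Genes given with full values were 11 preset genes, up to 2 from each further list, and the members with the smallest p. These members were up to 12 at an unadjusted p under 0.05, and the first of each class. Osgin1 was named as well, as the higher further NRF2 target at that p. The members and lists were chosen with earlier results of these data known. Only 6 arrays limit the precision. Alternatives covered scaling, dim filter, probe sets, pseudocount, variance model, array weights, a block for replicate number, single arrays left out and the threshold.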

Additional observations from a re-analysis of the deposited data

How the results depend on the processing

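Over all genes the 13 calls became 20 with the mean of all probe sets of a gene, 21 with an intensity trend and robust variance, 21 at an adjusted p under 0.10, 215 with array weights and 4 to 91 with 1 array left out, the highest without f/f replicate 3. Array weights gave that array a weight of 0.178, 2 members past the threshold (Gsta2 and Gstm2, where 1.57% of all genes passed) and 13 with an unadjusted p under 0.05, where 13.0% of all genes had. With 1 array left out, 0 to 2 members passed and 4 to 12 had an unadjusted p under 0.05, where 4.88% to 11.2% of all genes had. The lowest count came without f/f replicate 2, d/d replicate 1 or d/d replicate 2. The median of the members, -0.095 with all arrays, ran from -0.13 to -0.048 over the fits with 1 array left out, and was -0.15 with array weights. Gstm1, Gstm2, Gstm3 and Gclc had an unadjusted p under 0.05 in each fit that left out 1 array. Gstm3 missed it with the mean of its probe sets, as did Gss and Nfe2l2. Signs turned for genes near 0: with the mean of all probe sets Gclm had 0.0035 and Srxn1 -0.068, and with 1 array left out Gstp1 ran over -0.073 to 0.17, Gpx1 over -0.088 to 0.032 and Srxn1 over -0.17 to 0.22. Among the members not given in full, Gstm7 (-0.072 to 0.17), Gstt3 (-0.36 to 0.074), Gstz1 (-0.0096 to 0.030), Mgst3 (-0.16 to 0.11) and Txnrd1 (-0.18 to 0.14) also changed sign in that series of fits. The causes were not tested.

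With the replicate number as a block, 6 genes passed and 0 members did in limma, 5 of them at an unadjusted p under 0.05 (5.26% of all genes). Deviations of same-numbered arrays from their group means correlated at -0.0033, -0.14 and -0.47, and no array correlated best with its own number. Such deviations from means of 3 arrays cannot tell whether the numbers pair the arrays. Values near the dim filter, as for Nqo1, limit what could be seen.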
